A study of Mus musculus with 8 samples.

Results

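The genes described here belong to the signalling pathway of the bone morphogenetic proteins (BMPs) in mouse embryos of the outbred stock CD-1. They are 3 ligand genes (Bmp2, Bmp4 and Bmp7), the antagonist genes Nog, Smad6, Smad7 and Bambi, and the response genes Id1, Id2 and Id3. All probes whose RefSeq accession belongs to 1 of these 10 symbols were taken, which gave 11 probes of 55681 on the array and 10 genes of 20145 named. Each had 1 spot per array, and only Bmp4 had a second probe. Dams received an intraperitoneal injection on gestational day 9, either saline or hydroxyurea (400 mg/kg), and whole embryos were collected 3 h later. Hydroxyurea inhibits ribonucleotide reductase and so limits the supply of deoxyribonucleotides. Total RNA was measured on 8 Agilent arrays in 1 colour (Cy3), 4 for each treatment. The labels give no genetic alteration in either group, and they do not say whether a sample was 1 embryo, 1 litter or a pool, nor which samples came from the same experiment. Each p-value is set against the spread of these samples alone, which may be partly technical.

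BMPs are secreted dimers that bring type I and type II receptor kinases together, whereupon Smad1, Smad5 and Smad9 are phosphorylated and enter the nucleus with Smad4. Noggin, the product of Nog, binds the ligands outside the cell, BAMBI is a receptor-like protein without a kinase, and Smad6 and Smad7 block the receptors from inside. Id1, Id2 and Id3 are among the most direct transcriptional responses, and their products bind E proteins and keep them from DNA. In the embryo at organogenesis the pathway acts in the dorsal neural tube, the heart, the limb buds and the flanking mesoderm.

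Among the response genes, Id2 and Id3 are shown by sequence because their estimates pointed in opposite directions. The RefSeq promoter table (assembly GRCm38.p6) held 4 of the 10 genes, Bmp4, Id2, Id3 and Smad6. The lines give the 250 bases before the annotated start, 5′ to 3′ on the gene's strand. Capitals mark GGCGCC, a palindrome known from BMP-responsive elements, and GTCT, the core letters bound by Smads, or its reverse complement AGAC. These letters share no base with each other here.
Id2, chr12:25096093-25096342, minus strand: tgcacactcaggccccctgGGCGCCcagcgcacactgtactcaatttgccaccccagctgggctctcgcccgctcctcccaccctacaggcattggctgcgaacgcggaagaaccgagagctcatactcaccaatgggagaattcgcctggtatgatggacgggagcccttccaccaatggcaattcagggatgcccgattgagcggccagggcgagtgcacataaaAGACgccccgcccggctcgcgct
Id3, chr4:136143572-136143821, plus strand: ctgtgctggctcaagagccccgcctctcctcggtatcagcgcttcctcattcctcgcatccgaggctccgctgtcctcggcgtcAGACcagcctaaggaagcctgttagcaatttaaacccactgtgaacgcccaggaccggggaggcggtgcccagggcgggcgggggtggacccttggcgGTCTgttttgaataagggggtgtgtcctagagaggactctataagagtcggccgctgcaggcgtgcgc
GGCGCC occurred in the Id2 window and in none of those of Bmp4, Id3 and Smad6, and it was present in 9.6% of the 32851 windows of this length. GTCT or AGAC occurred in the windows of all 4 genes, with 2 matches in Id3 and 1 in each of the others, and in 82.9% of all windows. A match describes letters and not a bound site.

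Both of the slides used carried 2 hydroxyurea and 2 saline arrays. Slide 1 was scanned at 3 micrometres per pixel and slide 2 at 5. Between 56.0% and 62.3% of spots were well above background on slide 1, and 48.7% to 55.5% on slide 2. Values are the log2 processed signal minus the 75th percentile of that array, so that 0 is the level of that percentile. The array hydroxyurea 2 stood apart from the rest. Across 23121 genes and unnamed features 1429 passed an adjusted p of 0.05 with limma (6.18%), and 3739 without this array (16.2%), while leaving out any other single array gave 524 to 982. The differences of the 9 genes and of the called genes below are therefore given with and without it. The 18 markers of neural tube, heart and somites were well above background on all 8 arrays. The decidual marker Prl8a2 was at 6.03 on hydroxyurea 3 and 2.40 on hydroxyurea 2, and at -7.51 to -2.03 on the others. It carried the summed level of the 6 decidual and maternal markers (4 measured), which was 6.11 and 3.28 on these arrays and 1.47 to 2.25 on the others. Dcn, Pgr and Cd3e were highest on other arrays, and Ptprc and Lyz2 were dim.

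The question was whether transcripts of the pathway differed after hydroxyurea. Of the 9 genes measured above background, 0 passed as higher and 0 as lower at an adjusted p of 0.05 with limma, beside 2.78% and 3.4% of all features (6.18% in either direction). With each probe as its own feature (6.83% of probes called), with normexp background correction (5.94% of features) and with quantile normalization (7.99%), 0 of the 9 passed as well. At an unadjusted p of 0.05, 1 of the 9 passed, Bmp2, beside 24.8% of all features. Bmp2 was 1.70-fold higher and Nog 1.70-fold lower on average, and the other 7 lay between 1.32-fold lower (Id3) and 1.29-fold higher (Id1). The 4 arrays of one group did not overlap those of the other for 1 of the 9, Smad7, beside 15.5% of all features. The 95% confidence intervals excluded a 2-fold change in either direction for 7 of the 9 genes and a 1.5-fold change for 1, Bmp4. The median log2 difference of the 9 was 0.11, and that of all features 0.04.

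**Figure D1:**
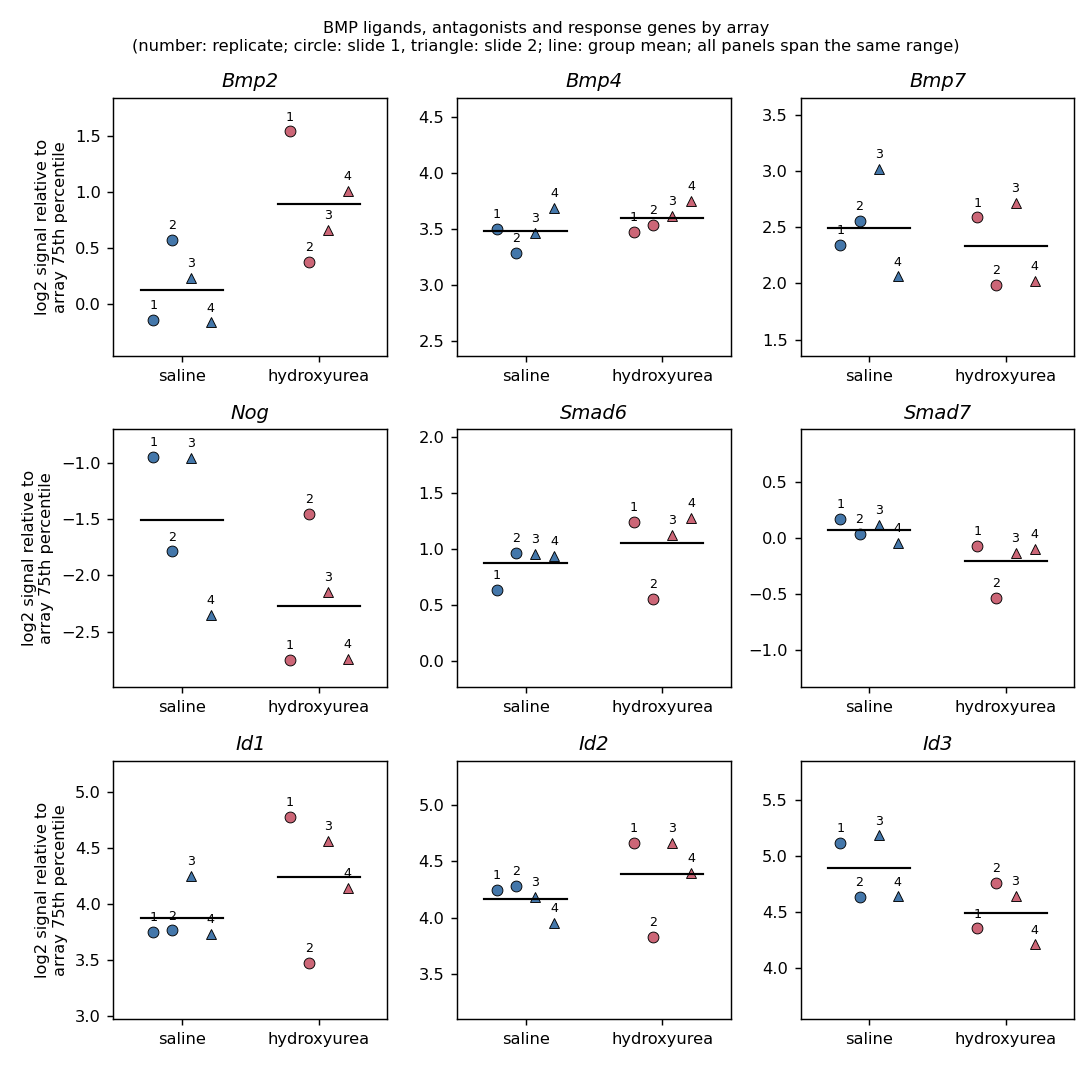
Log2 signal relative to the 75th percentile of the array (vertical axis) for the 9 measured genes in each saline and hydroxyurea array, with the mean of each group as a line and every panel spanning the same range. The array hydroxyurea 2 is the lowest of the 8 for Id1 (3.48), Id2 (3.83), Smad6 (0.56), Smad7 (-0.54) and Bmp7 (1.99).

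Among the ligands, Bmp2, which acts in heart cushion and mesoderm formation, had the lowest p. Its log2 values were 1.54, 0.37, 0.66 and 1.01 in hydroxyurea 1 to 4 and -0.14, 0.57, 0.24 and -0.16 in saline 1 to 4. Saline 2 exceeded hydroxyurea 2, so the groups overlapped. The log2 difference was 0.77 ± 0.27 (SE, n = 4 per group, limma adjusted p = 0.126), a 1.70-fold ratio with an unadjusted 95% interval of 1.11 to 2.61. Without hydroxyurea 2 it was 0.94 ± 0.26 (limma adjusted p = 0.0487), when 1 of the 9 genes passed (11.1%) beside 16.2% of all features. When each probe was its own feature, Bmp2 did not pass in that fit either. The 2 arrays with the highest Bmp2 values, hydroxyurea 1 and hydroxyurea 4, had summed decidual levels of 1.47 and 2.15, beside 1.92 to 2.25 in saline. Within that list Pgr, well above background on 4 of 8 arrays, was at -3.49 and -3.97 on hydroxyurea 1 and 4. It was at -4.77 and -3.99 on hydroxyurea 2 and 3 and at -6.24 to -4.81 in saline (limma adjusted p = 0.0541). Prl8a2, Dcn and Cd3e overlapped between the groups. Of 5 trophoblast markers 3 were measured and 1, Ascl2, passed as higher, and their summed level was 3.20 to 5.17 in hydroxyurea and 1.23 to 5.04 in saline. The sum was mostly Gcm1, which was at 4.56 and 5.14 on hydroxyurea 1 and 4 and at 5.03 on saline 4, where Bmp2 was lowest. Ascl2 was at -0.65 and -1.03 on hydroxyurea 1 and 4 and at -2.23 on saline 4, and Prl3d1 was high only on hydroxyurea 2 and 3 (2.40 and 1.43, against -3.91 to -2.39). The part of these markers in the Bmp2 values was not tested. In whole embryos fewer cells of a type and less RNA per cell cannot be told apart.

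Bmp4, the ligand of ventral and lateral mesoderm and of the dorsal neural tube, had the narrowest interval of the 9. It stood at 3.47, 3.54, 3.62 and 3.75 in hydroxyurea 1 to 4 and at 3.50, 3.29, 3.47 and 3.68 in saline 1 to 4. The arrays of both groups were interleaved. The difference was 0.11 ± 0.14 (SE, n = 4 per group, limma adjusted p = 0.676), and the interval ran from 0.862-fold to 1.35-fold. Without hydroxyurea 2 it was 0.13 (limma adjusted p = 0.57). The second Bmp4 probe was well above background on 0 of 8 arrays and gives no level. Bmp7, a ligand of kidney and eye development, ranged from 1.99 to 2.72 in hydroxyurea and from 2.06 to 3.02 in saline. Its difference of -0.16 (SE 0.25, limma adjusted p = 0.73) was smaller than the SD within either group (0.38 in hydroxyurea, 0.40 in saline), and it was -0.05 without hydroxyurea 2 (limma adjusted p = 0.912).

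Nog, whose product holds BMPs away from their receptors, was the dimmest measured gene of the set, with signals of 51.6 to 242 against background limits of 7.14 to 15.1. Its log2 values were -2.75, -1.45, -2.15 and -2.74 in hydroxyurea 1 to 4 and -0.94, -1.79, -0.95 and -2.35 in saline 1 to 4. Saline 4 lay among the hydroxyurea arrays, and hydroxyurea 2 among the saline arrays. The difference of -0.77 ± 0.39 (SE, n = 4 per group) did not pass (limma adjusted p = 0.256), and the interval from 0.32-fold to 1.08-fold was the widest of the 9. Without hydroxyurea 2 it was -1.04 (limma adjusted p = 0.0934). With normexp it was -0.44.

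The inhibitory Smad genes showed small differences of opposite sign. Smad6, whose product preferentially blocks BMP receptors, stood at 1.24, 0.56, 1.13 and 1.28 in hydroxyurea 1 to 4 and at 0.63, 0.96, 0.96 and 0.94 in saline 1 to 4. All hydroxyurea arrays but the second lay above every saline array. The difference was 0.18 ± 0.19 (SE, n = 4 per group, limma adjusted p = 0.605), and 0.34 without hydroxyurea 2 (limma adjusted p = 0.126). Smad7, whose product blocks both BMP and TGF-beta receptors, stood at -0.07, -0.54, -0.14 and -0.10 in hydroxyurea 1 to 4 and at 0.17, 0.03, 0.11 and -0.04 in saline 1 to 4. Every hydroxyurea value was below every saline value, by as little as the step from -0.04 (saline 4) to -0.07 (hydroxyurea 1). The difference of -0.28 ± 0.15 (SE, n = 4 per group) did not pass (limma adjusted p = 0.293), and it was -0.17 without hydroxyurea 2. Bambi was well above background on 1 of 8 arrays, saline 2, with a signal of 50.9 against 2.30 to 5.60 on the others. It was left out of the main fit, and with no filter on dim probes it did not pass. The summed level of 7 yolk sac endoderm markers was also highest on saline 2, at 7.34 against 3.35 to 5.82 on the others, and each of the 7 was highest on that array. Their part in the Bambi signal was not tested.

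Of the 3 Id genes 0 passed, and the estimates were above 0 for Id1 and Id2 and below 0 for Id3. Id1 stood at 4.78, 3.48, 4.57 and 4.15 in hydroxyurea 1 to 4 and at 3.75, 3.77, 4.25 and 3.74 in saline 1 to 4. Hydroxyurea 1 and hydroxyurea 3 lay above all saline arrays and hydroxyurea 2 below all of them. The difference was 0.36 ± 0.28 (SE, n = 4 per group, limma adjusted p = 0.453), and 0.62 ± 0.21 without hydroxyurea 2 (limma adjusted p = 0.0782). Id2 stood at 4.66, 3.83, 4.66 and 4.40 in hydroxyurea 1 to 4 and at 4.25, 4.28, 4.18 and 3.95 in saline 1 to 4. As for Id1, hydroxyurea 2 was the lowest array of all and hydroxyurea 1 and 3 were the highest. The Id2 difference was 0.22 ± 0.21 (SE, n = 4 per group, limma adjusted p = 0.542), and 0.41 without hydroxyurea 2 (limma adjusted p = 0.0903). Id3 stood at 4.35, 4.76, 4.65 and 4.21 in hydroxyurea 1 to 4 and at 5.12, 4.64, 5.18 and 4.64 in saline 1 to 4. Hydroxyurea 1 and 4 lay below all saline arrays, and the other hydroxyurea arrays lay just above saline 2 and saline 4. The Id3 difference was -0.40 ± 0.20 (SE, n = 4 per group, limma adjusted p = 0.242), and -0.49 without hydroxyurea 2 (limma adjusted p = 0.129).

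**Figure D2:**
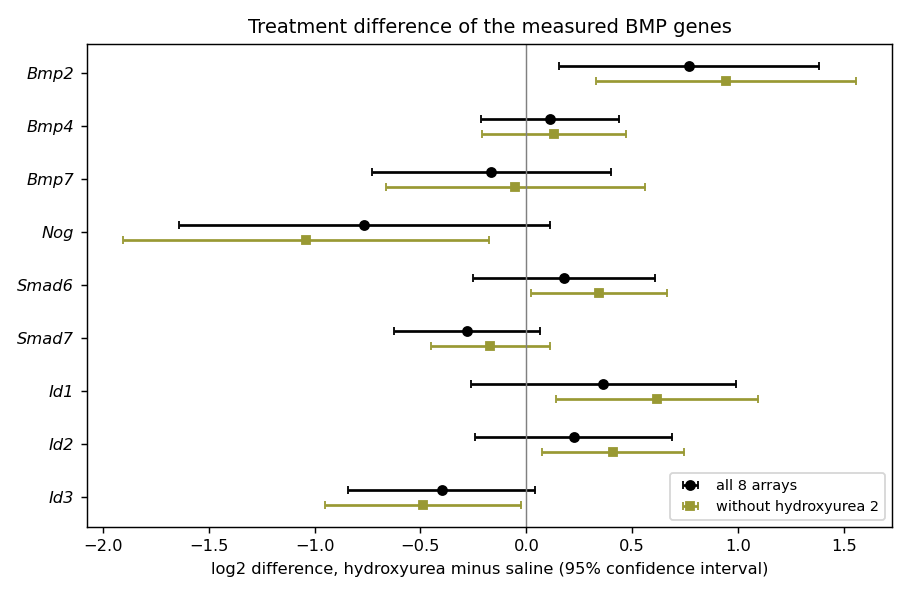
Log2 difference of hydroxyurea minus saline (horizontal axis) with its unadjusted 95% confidence interval for each of the 9 measured genes, with all 8 arrays (circles) and without hydroxyurea 2 (squares). With all arrays 8 of the 9 intervals include 0. Without hydroxyurea 2 those of Bmp4, Bmp7 and Smad7 do and the other 6 do not, beside 34.3% of all features whose interval excludes 0 in that fit.

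Without hydroxyurea 2 the estimate grew in size for 7 of the 9 genes, and fell in size for Bmp7 and Smad7. The unadjusted 95% interval then excluded 0 for 6 of the 9, beside 34.3% of all features (24.8% with all arrays), and the array was singled out because leaving it out raised the calls over all features. The slides gave like values for most genes. On slide 1 and slide 2 the difference was 0.74 and 0.80 for Bmp2, -0.74 and -0.79 for Nog, 0.37 and 0.36 for Id1 and -0.32 and -0.48 for Id3. It was -0.02 and 0.46 for Id2, and -0.41 and -0.15 for Smad7. An interaction of slide and treatment passed for 0 of the 9 (limma, unadjusted p between 0.317 and 0.99), with SEs of 0.33 to 0.85 that leave room for large differences. Across all features the same test called 0, with 218 at an unadjusted p of 0.05. Blocking on slide also gave 0 calls among the 9, with limma adjusted p-values from 0.152 (Bmp2) to 0.75 (Bmp7).

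Related genes were next compared with each other inside each array, where the scaling cancels. The log2 value of 1 gene minus that of its relative was set between the groups with an exact two-sided permutation test of 4 against 4 arrays, whose smallest possible p is 0.0286. After adjustment over the 7 pairs a lone pair at that p can reach only 0.2, so the adjusted values say little, and the sizes are given as a description. Smad6 minus Smad7 was 1.31, 1.1, 1.26 and 1.38 in hydroxyurea 1 to 4 and 0.47, 0.93, 0.85 and 0.98 in saline 1 to 4. The groups did not overlap, and Smad6 was 0.46 log2 units higher relative to Smad7 in hydroxyurea (exact permutation p = 0.0286, adjusted p = 0.2). Bmp2 minus Bmp7 was 0.93 higher in hydroxyurea (exact permutation p = 0.0571, adjusted p = 0.2). Id1 minus Id3 was 0.43, -1.28, -0.08 and -0.07 in hydroxyurea 1 to 4 and -1.36, -0.87, -0.93 and -0.90 in saline 1 to 4. Here hydroxyurea 2 fell among the saline arrays and the other hydroxyurea arrays above them all, for a mean shift of 0.76 (exact permutation p = 0.114, adjusted p = 0.2). Id2 minus Id3 shifted by 0.62 (exact permutation p = 0.114, adjusted p = 0.2) and Id1 minus Id2 by 0.14 (exact permutation p = 0.457, adjusted p = 0.457). Without hydroxyurea 2 the shifts were 1.11 for Id1 minus Id3, 0.90 for Id2 minus Id3 and 0.51 for Smad6 minus Smad7.

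**Figure D3:**
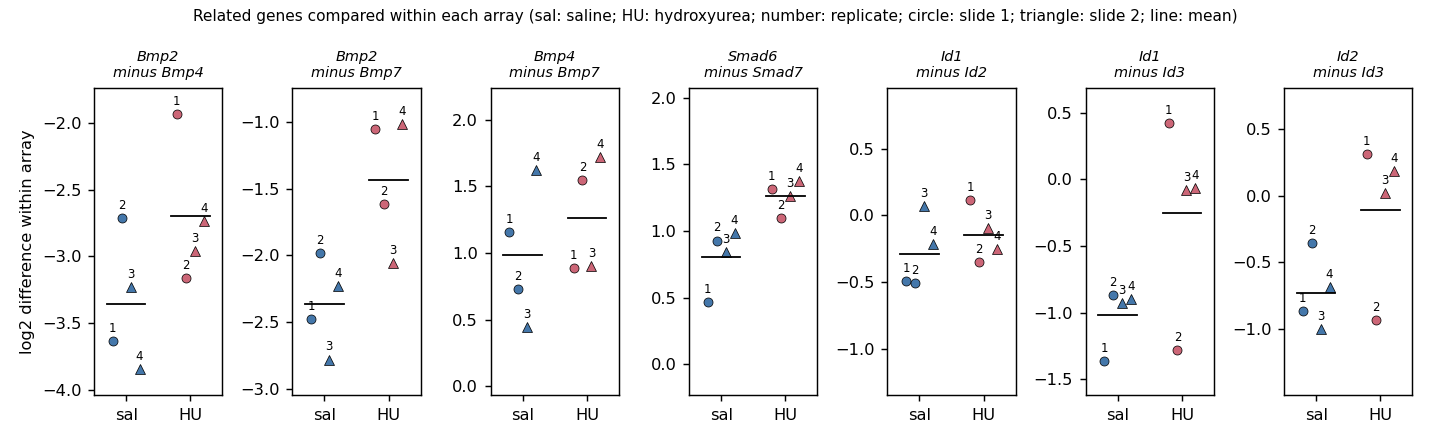
Log2 value of one gene minus that of a related gene within each array (vertical axis) for 7 pairs, by group, with group means as lines. For Smad6 minus Smad7 all hydroxyurea arrays (1.1 to 1.38) lie above all saline arrays (0.47 to 0.98), and the other pairs overlap.

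The wider pathway was described by 5 further lists, of ligands, receptors, antagonists, Smad transducers and other response genes. Together with the 9 genes above they held 102 measured genes of 109 on the array. Of these, 2 were higher and 4 lower at an adjusted p of 0.05 (5.88%, beside 6.18% of all features), and the groups did not overlap for 15 (14.7%, beside 15.5%). Without hydroxyurea 2, 18 passed (17.6%, beside 16.2%), 5 as higher and 13 as lower, where all features split into 1973 higher and 1766 lower. All 6 were among them, with limma adjusted p-values from 0.00558 to 0.0243. Of 16 further ligand genes 0 passed, with 4 at an unadjusted p of 0.05 (24.8% of all features passed that) and a median difference of 0.08. The lowest p-values were those of Bmp3, a ligand that opposes other BMPs (-0.97, limma adjusted p = 0.146, and 0.00892 without hydroxyurea 2, but -0.24 with normexp), and of Gdf3, a ligand of the early embryo (-0.46, limma adjusted p = 0.164, and -0.50 without hydroxyurea 2, adjusted p = 0.117).

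Of 12 receptor and co-receptor genes 1 fell, 0 rose and 11 did not pass (beside 6.18% of all features called), with a median of -0.05. The gene that fell was Rgma, which encodes a membrane-anchored co-receptor of BMPs that also guides axons. Its log2 values were -0.53, -0.36, -0.43 and -0.72 in hydroxyurea 1 to 4 and 0.27, 0.49, 0.41 and -0.02 in saline 1 to 4. The groups were apart, with a 1.74-fold lower level in hydroxyurea (log2 -0.80 ± 0.16, SE, n = 4 per group, limma adjusted p = 0.0233). The call was lost without hydroxyurea 1 or 4 or saline 1, 2 or 3 (limma adjusted p between 0.062 and 0.0833) and with median centring (0.0904), and the difference was -0.85 without hydroxyurea 2. Of 7 neural tube and neural crest markers 1, Sox10, was lower and 0 higher. Sox10 was at 0.03 to 0.43 in hydroxyurea and 0.88 to 1.09 in saline. Sox2 and Pax6, which did not pass (limma adjusted p = 0.0761 and 0.109), were also lower on every hydroxyurea array. Sox1, Nes, Foxd3 and Tfap2a overlapped between the groups. The summed level of the 7, mostly that of Nes, was 4.53 to 4.89 in hydroxyurea and 4.77 to 5.07 in saline. The part of these markers in the Rgma values was not tested.

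Of 18 further antagonist and modulator genes 1 rose, 0 fell and 17 did not pass (beside 6.18% of all features called), with a median of 0.11. It was Fst, which encodes follistatin, a secreted protein that binds activins and some BMPs. Its log2 values were 2.20, 1.70, 1.97 and 2.37 in hydroxyurea 1 to 4 and 1.16, 1.35, 1.47 and 1.02 in saline 1 to 4. The ratio was 1.75-fold (log2 0.81 ± 0.19, SE, n = 4 per group, limma adjusted p = 0.0363). Without any single array but hydroxyurea 2 it did not pass (limma adjusted p between 0.0626 and 0.113), nor with median centring (0.0677) or slide blocking (0.0551), and without hydroxyurea 2 the difference was 0.93. Among the decidual and maternal markers, Pgr was higher on every hydroxyurea array, as given beside Bmp2, and Prl8a2, Dcn and Cd3e overlapped between the groups. The part of these markers in the Fst values was not tested. Of 21 genes of Smad transducers, cofactors and degradation 0 passed, with 3 at an unadjusted p of 0.05 (beside 24.8% of all features) and a median of 0.12. The lowest p-values were those of Hivep1, a zinc finger gene related to Schnurri (-0.81, limma adjusted p = 0.0971), and Ppm1a, a phosphatase gene that acts on Smads (-0.67, limma adjusted p = 0.114), and both passed without hydroxyurea 2 (limma adjusted p = 0.00872 and 0.0328).

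Of 26 other response and partner genes 3 fell, 1 rose and 22 did not pass (15.4% called, beside 6.18% of all features), with a median of -0.11. That count of 4 was 7 without hydroxyurea 2, 2 without hydroxyurea 3 or saline 4, and 1 without any other array. It was also 2 with normexp, median centring or slide blocking, and 1 with no filter on dim probes. Hand1, a basic helix-loop-helix gene of heart, lateral and extraembryonic mesoderm, fell furthest. It stood at 0.06, 0.26, -0.39 and -0.57 in hydroxyurea 1 to 4 and at 1.13, 1.53, 1.45 and 0.95 in saline 1 to 4. The groups were well apart, and the level was 2.67-fold lower in hydroxyurea (log2 -1.42 ± 0.22, SE, n = 4 per group, limma adjusted p = 0.00831). It passed in 15 of 17 alternative fits, all but those of a single slide, where it was -1.17 and -1.67, and it was -1.56 without hydroxyurea 2. Of 6 heart markers 1 was higher and 0 lower, with summed levels of 8.22 to 8.68 in hydroxyurea and 7.88 to 8.35 in saline. Of 7 yolk sac endoderm markers 0 passed, with summed levels of 3.35 to 5.82 and 3.59 to 7.34. No marker list covered lateral or extraembryonic mesoderm, and the part of any tissue in the Hand1 values was not tested.

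Dlx5, a homeobox gene of branchial arches and limb buds, fell by 1.19 on the log2 scale (SE 0.30, limma adjusted p = 0.0499). Its hydroxyurea arrays ranged from -2.57 to -1.23 and its saline arrays from -0.80 to -0.57, and the difference was -1.37 without hydroxyurea 2. The call was lost with normexp (-0.76, limma adjusted p = 0.0547), with slide blocking (0.074) and on leaving out an array other than hydroxyurea 2 or 3 (0.0929 to 0.136). Lmx1b, a LIM-homeobox gene of the dorsal limb and the midbrain-hindbrain boundary, fell by 0.77 (SE 0.16, limma adjusted p = 0.0242), and by 0.38 with normexp, where it did not pass (0.184). A second Lmx1b probe read -0.67 and missed the threshold (limma adjusted p = 0.0961). The call was also lost with median centring (0.104) and on leaving out an array other than hydroxyurea 2 or saline 4 (0.0561 to 0.0872). Without hydroxyurea 2 the difference was -0.86. The neural markers Sox2, Pax6 and Sox10 were lower on every hydroxyurea array and the others of that list overlapped, as given beside Rgma. The part of these markers in the Lmx1b and Dlx5 values was not tested. Tcf12, which encodes an E protein of the kind that Id proteins bind, rose by 0.68 (SE 0.16, limma adjusted p = 0.0426), but a second Tcf12 probe read -0.16, and averaging the probes gave 0.26. Without hydroxyurea 2 the difference was 0.81. The Tcf12 call was lost on leaving out an array other than hydroxyurea 2 (0.0841 to 0.135), and with normexp (0.0657), median centring (0.0779) or slide blocking (0.0612). With no filter on dim probes Hand1 kept its call and the other 5 genes lost theirs (limma adjusted p between 0.0761 and 0.121).

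**Figure D4:**
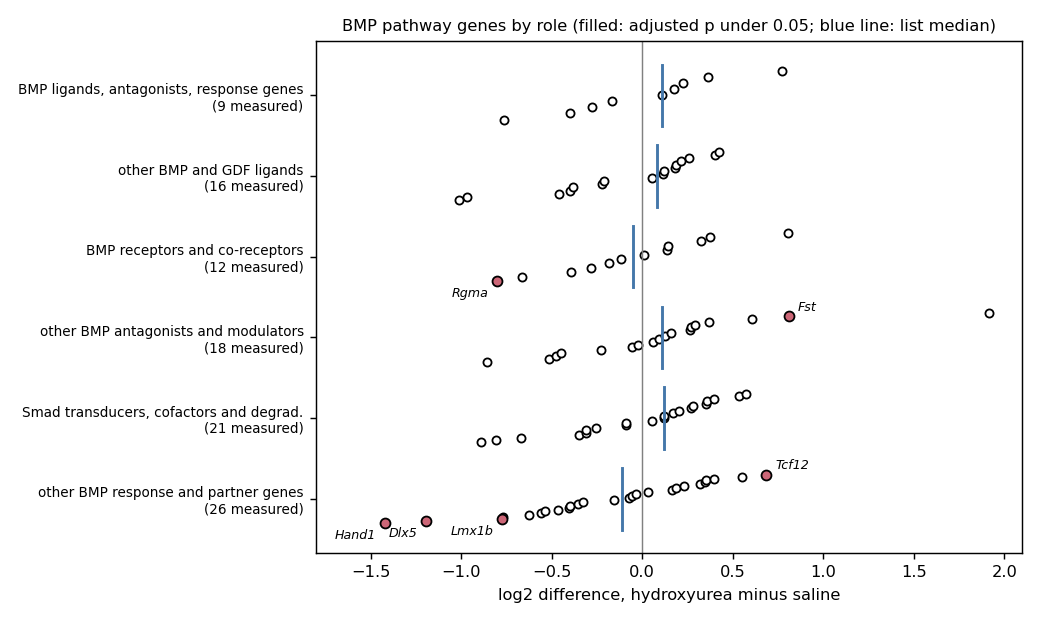
Log2 difference of hydroxyurea minus saline (horizontal axis) for the 102 measured genes of the pathway, in 6 lists by role, with called genes filled and named and the list median as a line. The medians lie between -0.11 and 0.12, and 6 genes, Rgma, Fst, Hand1, Dlx5, Lmx1b and Tcf12, are filled.

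As to the authors' own calls, the authors' deposited table listed 0 of the 11 probes of the 10 genes, and 4 probes of the wider lists, those of Hand1, Rgma, Tcf12 and Lmx1b.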

How the data were processed

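Scanner output was deposited for each array as background-subtracted intensity, made with Agilent Feature Extraction 11.5.1.1 (per the file headers and the submitters' processing notes) and not scaled between arrays. The authors' deposited table holds 1346 probes as log2 values with a row median near 0, with normalization and test not given in the sources used here, and served only to look up probes. From the processed signal, spots marked as outliers were left out (151 to 315 per array), a probe's log2 spots were averaged, and each array's 75th percentile (249 to 516 signal units) was subtracted. Probes well above background on at least 4 of 8 arrays were kept (30677), and the brightest stood for its gene, in 23121 features. Group differences came from limma 3.58.1 under R 4.3.3 (lmFit and eBayes without covariates) over all features, with two-sided p-values adjusted by Benjamini and Hochberg, and the SE is that of the moderated fit. The limma fit was tested on simulated data. Accessions were matched to symbols in RefSeq (GRCm38.p6). Slides were read from the array identifiers. The number of arrays limits the precision. Alternatives were normexp (offset 50, from the median spot signal, as the files used here have no mean-signal column), quantile normalization, median centring, other filters, the mean of a gene's probes, the slide as a block or alone, and each array left out.

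Members and lists were chosen with earlier results of these data known. By rule, all 10 genes are named, and of each other list all called genes up to 8, or the 2 with the lowest p; tissue markers are given where a list moves.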

Additional observations from a re-analysis of the deposited data

Results flagged for a closer look

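In 3 of 18 groups of 4 arrays (9 genes, 2 groups each), 1 array lay far from the others by Dixon's gap test, where chance flags about 1 group in 20. Smad6 on saline 1 was 0.63 against 0.94 to 0.96 on the other saline arrays. Smad7 on hydroxyurea 2 was -0.54 against -0.14 to -0.07 on the other hydroxyurea arrays. Id1 on saline 3 was 4.25 against 3.74 to 3.77 on the other saline arrays.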

How the results depend on the processing

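Of 153 alternative fits of the 9 genes (17 each), 1 passed an adjusted p of 0.05 with limma, Bmp2 without hydroxyurea 2. The sign held in all 17 for 7 of the 9. Bmp7 reached 0.0099 without saline 3 (range without 1 array -0.31 to 0.0099) and Id2 was -0.016 on slide 1 alone. Leaving out 1 array gave 0 to 1 called of the 9, 1 to 18 called over the 6 lists and 524 to 3739 over all features (213 to 1973 higher, 311 to 1766 lower). Over the 6 lists 3 were called with median centring, 3 with the slide as a block, 1 with no filter on dim probes and 0 on either slide alone. Over all features 615 were called with no filter (269 higher, 346 lower), 59 on slide 1 alone (29 and 30) and 3 on slide 2 alone (0 and 3), where 2 arrays per group limit the test. Median centring moved the median of all features from 0.04 to 0.16. The pair test is too coarse to show stability, and on single slides the pairs were values with no test, where Id1 minus Id2 reversed to -0.10 on slide 2. Pairs without single arrays or with median centring, and the slide test under other settings, were chosen after seeing the data. No paired analysis was possible because the labels give no replicate numbers that tie samples together. Precision is limited by 1 spot per probe and by the arrays' number.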
